A study of Homo sapiens with 8 samples.

Results

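The RNA polymerase I and III machinery is the set of proteins that transcribe ribosomal RNA, transfer RNA and other short structural RNAs in the nucleus. It was followed here through the mRNAs of 36 genes, which were chosen as a list of symbols and looked up in the deposited count table. All 36 symbols were found among 61517 listed genes, and all 36 were among the 15554 genes that passed a filter on low counts, so no member was lost to the filter. By role they are 3 subunits of polymerase I, 2 subunits shared by polymerases I and III, 5 subunits shared by all 3 nuclear polymerases, 9 subunits of polymerase III, 6 initiation factors of polymerase I, 3 genes of TFIIIB, 7 genes of TFIIIA and TFIIIC, and MAF1.

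The samples are poly(A)-selected RNA-seq libraries of KYSE150, a cell line from a human esophageal squamous cell carcinoma, with 2 libraries in each of 4 groups. The groups are hypoxia with oxamate and NALA, hypoxia with oxamate, hypoxia with no added agent, and normoxia. Oxamate inhibits lactate dehydrogenase, and NALA was read as sodium lactate because the treatment protocol names sodium oxamate and sodium lactate. The series belongs to a study of HIF-1α lactylation, and the sources used here do not give doses, times or oxygen levels. All groups come from 1 cancer cell line, so nothing here speaks to other cells.

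Polymerase I makes the precursor of the large ribosomal RNAs in the nucleolus, after UBTF, the SL1 complex and RRN3 have set it on the ribosomal DNA. Polymerase III makes 5S ribosomal RNA, transfer RNAs and U6 RNA, guided by TFIIIA, TFIIIC and TFIIIB, and MAF1 holds it back when nutrients or growth signals fail. The work of both enzymes is tied to ribosome production and growth, and is often raised in cancer cells. The products themselves mostly lack poly(A) tails, so poly(A)-selected libraries show the mRNAs of the machinery and say little of its output.

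Total counts ran from 21845676 to 29406061 per library. Levels below are CPM, the share of a library's counts rescaled to a common total, adjusted by the trimmed mean of M-values (TMM-scaled CPM), with factors of 0.901 in the libraries with oxamate and NALA, 0.879 with oxamate, 1.10 in hypoxia and 1.15 in normoxia. Changes are fitted log2 fold changes ± standard error from edgeR, and a gene was called at an adjusted p under 0.05 over all tested genes. Nothing in the labels says that replicates are separate cultures, and each p-value therefore reflects the spread of these libraries alone, possibly a technical one. That spread was small, with a common biological coefficient of variation of 3.06%, so that small changes were called. Replicates still differed by more than counting noise. Chi-square over degrees of freedom was 4.36 with oxamate and NALA, 2 with oxamate, 2.07 in hypoxia and 1.82 in normoxia. The fit pools the spread over groups, so standard errors and p-values of comparisons with NALA may be too small. Marker sums, unlike the levels below, are CPM of the library totals without the TMM factors. The 8 squamous epithelial markers summed to 2970 and 2990 CPM with oxamate and NALA, 4050 and 4060 CPM with oxamate, 2300 CPM in both hypoxia libraries and 3130 and 3140 CPM in normoxia. With the TMM factors the order of normoxia and oxamate with NALA in this sum would turn. KRT5 alone ran from 1070 to 3070 CPM. The fibroblast markers summed to 0.732 to 1.03 CPM with oxamate and NALA, 0.714 to 1.24 CPM with oxamate, 8.69 to 8.97 CPM in hypoxia and 2.69 to 3.02 CPM in normoxia, and the leukocyte and endothelial sums stayed under 3 CPM in every library. The fibroblast sum is mostly COL1A1 (0.646 to 8.58 CPM), and COL1A2, PDGFRB and LUM did not exceed 0.232 CPM in any library. Counts from mitochondrial genes made up 2.14% and 2.09% with oxamate and NALA, 2.45% and 2.44% with oxamate, 4.78% and 4.61% in hypoxia and 5.74% and 5.73% in normoxia, and the part of these sums and shares in the results was not tested.

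Promoter sequence from RefSeq (GRCh38.p14) was searched for 30 of the 36 members. It was taken in 44 windows that run from 250 bases before to 50 bases after an annotated start. The 4 windows printed here belong to 2 pairs of partners whose levels moved apart in the data below. POLR1A and POLR1B encode the catalytic core of polymerase I, and GTF3C6 and GTF3C4 encode subunits of TFIIIC. POLR1A lies at chr2:86105837-86106136 on the minus strand, POLR1B at chr2:112541786-112542085 on the plus strand, GTF3C6 at chr6:110958456-110958755 on the plus strand and GTF3C4 at chr9:132669785-132670084 on the plus strand. Capitals mark CACGTG (E-box), ACGTG (the core word of hypoxia response elements) or CCGGAAG (an ETS family word), searched on both strands, so that ACGTG can appear as CACGT and CCGGAAG as CTTCCGG.
POLR1A: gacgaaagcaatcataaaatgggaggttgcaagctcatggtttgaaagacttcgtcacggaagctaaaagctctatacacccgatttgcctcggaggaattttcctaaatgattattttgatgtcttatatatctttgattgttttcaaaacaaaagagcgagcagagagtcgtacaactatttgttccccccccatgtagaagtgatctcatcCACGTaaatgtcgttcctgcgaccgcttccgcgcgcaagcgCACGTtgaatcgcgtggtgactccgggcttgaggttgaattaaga
POLR1B: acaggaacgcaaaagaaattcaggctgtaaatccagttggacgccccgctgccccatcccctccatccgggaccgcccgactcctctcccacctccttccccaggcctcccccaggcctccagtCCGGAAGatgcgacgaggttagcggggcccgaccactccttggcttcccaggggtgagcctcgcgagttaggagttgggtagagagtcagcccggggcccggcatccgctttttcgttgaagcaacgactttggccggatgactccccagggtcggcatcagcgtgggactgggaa
GTF3C6: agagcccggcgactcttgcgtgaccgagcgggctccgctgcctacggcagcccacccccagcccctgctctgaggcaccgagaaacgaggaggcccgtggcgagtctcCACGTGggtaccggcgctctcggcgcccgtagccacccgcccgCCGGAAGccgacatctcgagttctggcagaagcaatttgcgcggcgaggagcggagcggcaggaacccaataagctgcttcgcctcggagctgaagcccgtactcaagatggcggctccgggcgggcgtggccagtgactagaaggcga
GTF3C4: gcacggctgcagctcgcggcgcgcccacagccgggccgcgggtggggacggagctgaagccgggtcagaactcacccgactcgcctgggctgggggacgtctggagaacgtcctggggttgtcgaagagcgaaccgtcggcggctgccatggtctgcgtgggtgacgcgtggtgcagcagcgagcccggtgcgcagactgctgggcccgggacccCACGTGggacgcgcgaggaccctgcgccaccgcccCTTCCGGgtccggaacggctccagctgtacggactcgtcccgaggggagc

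CACGTG holds ACGTG on both strands, so each E-box also counts as an ACGTG match. The member windows leave out chromosome 8, where POLR3D, POLR2K, BRF2 and MAF1 lie, so these members were not searched. The windows of all tested genes do not leave it out, so the shares compare sets chosen differently. An E-box was found in 6 of the 44 member windows (13.6%), against 9.3% of the 15438 windows of all tested genes, and these windows belong to POLR3A, POLR3C, POLR3E, GTF3C2, GTF3C4 and GTF3C6. ACGTG was found in 13 windows (29.5%), against 25.5% for tested genes, and CCGGAAG in 20 windows of 16 genes (45.5%), against 17.1%. TATAAA was found in 1 member window (2.3%), that of GTF3C3, against 6.3%. In POLR1A the ACGTG words begin 36 bases before and 5 bases after the start, and POLR1B has none in its window. The E-box lies 142 bases before the start in GTF3C6 and 35 bases before it in GTF3C4. These matches describe letters in a window and are neither sites nor causes. On GRCh38 (GENCODE release 29) the genes themselves run from 86020216 to 86106155 on chromosome 2 for POLR1A, from 112541915 to 112577150 on chromosome 2 for POLR1B, from 110958560 to 110967890 on chromosome 6 for GTF3C6 and from 132670035 to 132694955 on chromosome 9 for GTF3C4.

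Hypoxia was set against normoxia, both with no added agent. Of the 36 members, 29 were lower and 6 were higher in hypoxia, where 36.8% of all tested genes were lower and 36.7% were higher. A decrease of at least 2-fold was found for 10 members (13.1% of all tested genes) and an increase of at least 2-fold for 1 member (15.6%), or for 2 members without replicate 1 of normoxia, with upper quartile scaling or with the stricter count filter. The median log2 fold change was -0.72 over the members and 0.02 over all tested genes. POLR1A, the largest subunit of polymerase I, was 5.21-fold lower in hypoxia, the largest decrease among the members, followed by POLR3B, POLR3G and POLR3K of polymerase III. The 6 that rose were POLR1D, POLR3GL, POLR2H, TAF1D, GTF3A and MAF1, and POLR3D alone did not pass in either direction (-0.03 ± 0.051, adjusted p = 0.613). Bulk RNA cannot tell less RNA per cell from fewer cells that make it.

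Oxamate in hypoxia was then set against hypoxia alone. Of the members, 29 were higher and 4 were lower with oxamate, where 35.7% of all tested genes were higher and 44.8% were lower. An increase of at least 2-fold was found for 16 members (14.3% of all tested genes) and a decrease of that size for 0 (27.5%). The median log2 fold change was 0.89 over the members and -0.20 over all tested genes. With libraries scaled by their totals alone, which moves the median of all genes by -0.32 in this comparison, 25 members were higher and 8 lower, and 9 were higher by at least 2-fold. Under that scaling 4143 of the 15554 tested genes were higher and 8508 lower. The largest increases were those of POLR3K (4.52-fold), POLR1A (3.96-fold), GTF3C6 (3.43-fold) and POLR3C (3.32-fold). The members that fell were GTF3C4, POLR3GL, BDP1 and TAF1B, and those not called were POLR3F, GTF3C2 and GTF3C3.

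NALA added to oxamate in hypoxia was set against oxamate in hypoxia. Here the members split, with 15 higher and 17 lower with NALA, where 33.2% of all tested genes were higher and 31.7% lower. At least 2-fold increases were found for 4 members (14.7% of all tested genes), BDP1, TAF1A, GTF3C4 and POLR1B, and a decrease of that size for POLR1A alone (4.49%). The median log2 fold change was -0.05 over the members and -0.02 over all tested genes. Replicates with NALA differed more than those of the other groups, so standard errors here may be too small. This comparison shares the oxamate libraries with the one before it, as that one shares the hypoxia libraries with the first, so the values of a gene in these comparisons are not independent of each other. The last comparison shares its libraries with the others too.

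Oxamate in hypoxia was last set against normoxia. There 18 members were higher and 13 lower, where 31.9% of all tested genes were higher and 40.1% lower. With library totals alone, which moves the median of all genes by -0.39 here, the split turned to 12 higher and 21 lower, so the balance of directions in this comparison depends on the scaling. The calls over all genes moved the same way, with 2838 of the 15554 tested genes higher and 8762 lower under that scaling. At least 2-fold increases were found for TAF1D, POLR1D and GTF3A (3 members, with 7.32% of all tested genes) and decreases of that size for GTF3C4 and POLR3B (2 members, with 20.2%). With library totals alone these counts were 1 and 7, and without replicate 2 of oxamate 5 members rose by at least 2-fold. The median log2 fold change was 0.10 over the members and -0.14 over all tested genes. Upper quartile scaling moved the median of all genes by 0.11 in hypoxia against normoxia and by -0.19 in NALA with oxamate against oxamate, and by less than 0.1 in the other comparisons.

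**Figure D1:**
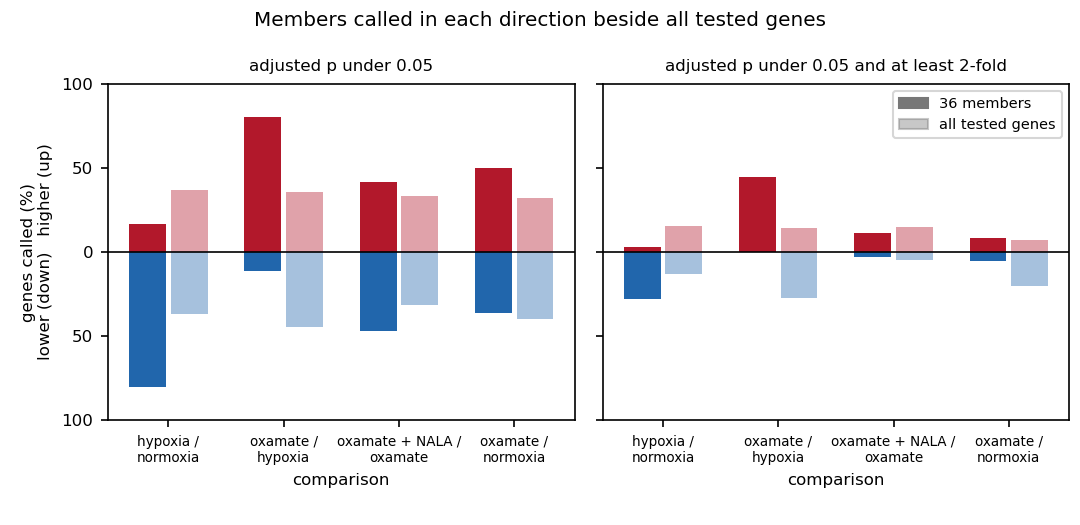
Share of genes called higher (red, upward) and lower (blue, downward) in each comparison, in percent, for the 36 members (dark bars) and all 15554 tested genes (pale bars), at an adjusted p under 0.05 (left) and with a change of at least 2-fold as well (right). In hypoxia against normoxia 29 of 36 members were lower, against 36.8% of all tested genes, and with oxamate against hypoxia 29 of 36 were higher, against 35.7%.

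**Figure D2:**
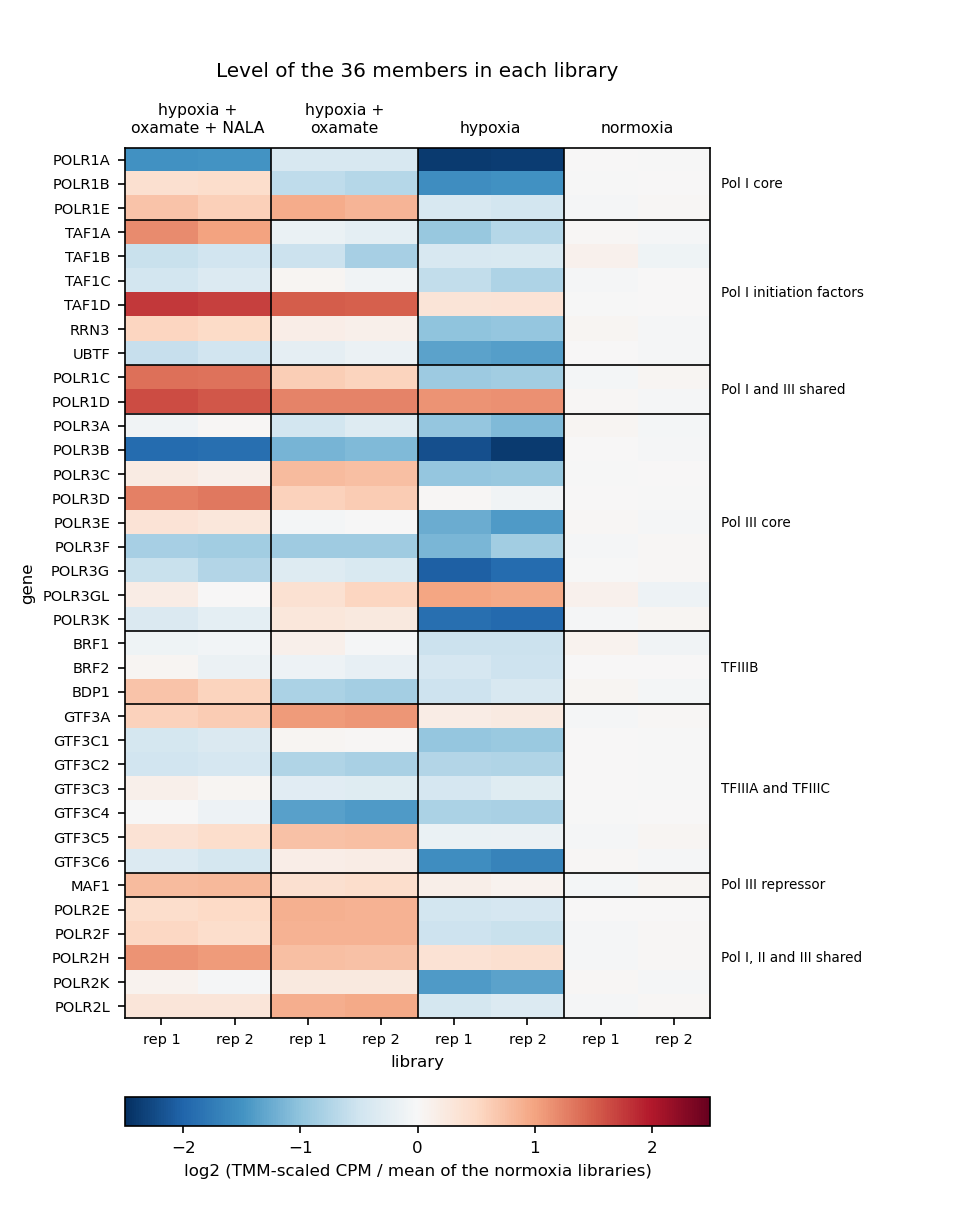
Level of each of the 36 members in each of the 8 libraries, as log2 of TMM-scaled CPM over the mean of the normoxia libraries (color scale), with genes grouped by role. The hypoxia columns hold the darkest blue cells, POLR1A and POLR3B, and the replicate columns of a group resemble each other.

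Ranked by group mean, hypoxia held the lowest level for 26 of the 36 members, against 27.1% of all tested genes. Normoxia was lowest for 6 members (20.0% of all tested genes), oxamate for 4 (28.8%) and oxamate with NALA for 0 (24.1%). The highest mean was found with oxamate and NALA for 12 members (21.5%), with oxamate for 12 (22.5%), in normoxia for 11 (23.9%) and in hypoxia for 1 (32%), which was POLR3GL. For POLR3D, POLR3F and GTF3C3 the hypoxia values overlapped with those of the next group in the order, so their lowest place is not set apart from the spread. The same holds for the lowest place of TAF1B and GTF3C2 with oxamate and of POLR3GL in normoxia, and for the highest place of POLR3A, TAF1C and BRF2 in normoxia and of BRF1 with oxamate.

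Polymerase I has a catalytic core of POLR1A and POLR1B. POLR1E is part of a peripheral dimer that helps the enzyme engage with RRN3 and the promoter. POLR1A (ENSG00000068654) had 31.8 and 32.3 CPM with oxamate and NALA, 69.1 and 68.4 CPM with oxamate, 17.2 and 17.5 CPM in hypoxia and 91.4 and 89.7 CPM in normoxia. POLR1B (ENSG00000125630) had 182 and 185 CPM with oxamate and NALA, 88.2 and 83.4 CPM with oxamate, 46.6 and 47.9 CPM in hypoxia and 136 and 138 CPM in normoxia. For both genes no libraries of different groups overlapped, and hypoxia was the lowest group, but oxamate with NALA was the highest group for POLR1B and came next after hypoxia from below for POLR1A. The fitted log2 fold change in hypoxia against normoxia was -2.38 ± 0.052 for POLR1A (adjusted p = 1.83e-20) and -1.54 ± 0.042 for POLR1B (adjusted p = 1.13e-18). With oxamate against hypoxia it was 1.98 ± 0.054 for POLR1A and 0.86 ± 0.044 for POLR1B. Both rose with oxamate, and neither reached its level in normoxia, with log2 fold changes against normoxia of -0.40 ± 0.044 for POLR1A and -0.67 ± 0.040 for POLR1B.

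With NALA the catalytic pair moved in opposite directions. POLR1A fell, with a log2 fold change of -1.10 ± 0.051 against oxamate (adjusted p = 1.73e-14), and POLR1B rose by 1.10 ± 0.040 (adjusted p = 2.42e-16). The ratio of POLR1A to POLR1B counts within a library, which does not depend on the scaling between libraries, was 0.174 and 0.175 with oxamate and NALA, 0.783 and 0.820 with oxamate, 0.369 and 0.366 in hypoxia and 0.673 and 0.650 in normoxia. These are ratios of counts with no correction for length, so they compare libraries and not the genes with each other. POLR1E (ENSG00000137054) had 59.9 and 55.5 CPM with oxamate and NALA, 69.8 and 65.7 CPM with oxamate, 27.7 and 26.7 CPM in hypoxia and 36 and 37 CPM in normoxia. Its log2 fold change was -0.43 ± 0.060 in hypoxia against normoxia, 1.32 ± 0.057 with oxamate against hypoxia and -0.24 ± 0.053 with NALA against oxamate. Unlike the core pair it stood above normoxia with oxamate (0.89 ± 0.054).

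**Figure D3:**
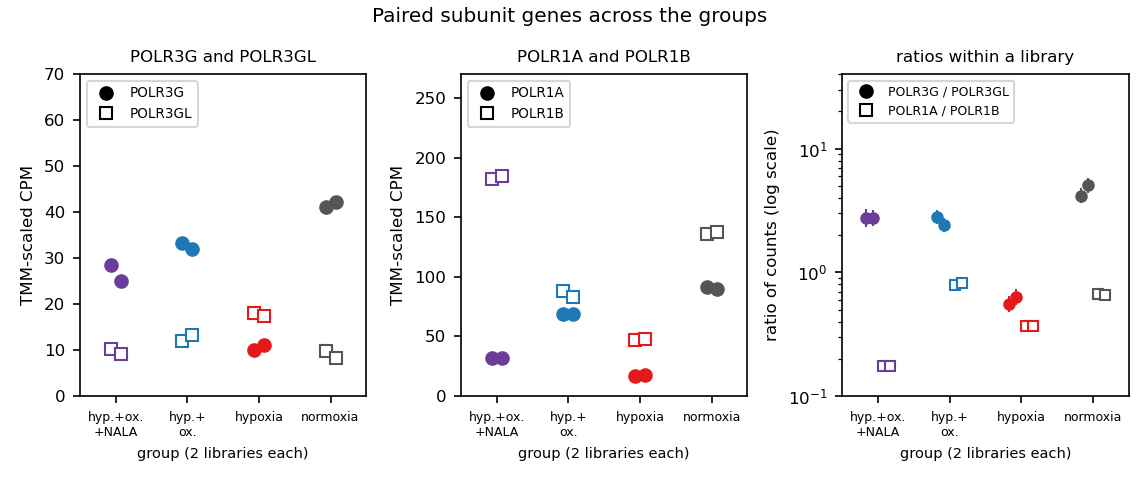
TMM-scaled CPM of POLR3G and POLR3GL (left) and of POLR1A and POLR1B (middle), 1 point per library and 2 libraries per group, and the ratio of counts of each pair within a library with 95% counting intervals (right, log scale). In these values, which are not corrected for length, POLR3G lies below POLR3GL in the hypoxia libraries alone. The ratio of POLR1A to POLR1B is lowest, at 0.174 and 0.175, with oxamate and NALA.

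POLR1C and POLR1D form a dimer on which polymerases I and III are both assembled. POLR1C (ENSG00000171453) had 65.5 and 64.7 CPM with oxamate and NALA, 38.5 and 37.4 CPM with oxamate, 13.5 and 13.9 CPM in hypoxia and 24.3 and 26.3 CPM in normoxia. POLR1D (ENSG00000186184) had 325 and 307 CPM with oxamate and NALA, 247 and 249 CPM with oxamate, 230 and 233 CPM in hypoxia and 107 and 103 CPM in normoxia. The dimer partners parted in hypoxia, where POLR1C was below its normoxia level and POLR1D above it, with no overlap between libraries of the groups. The log2 fold change in hypoxia against normoxia was -0.89 ± 0.070 for POLR1C (adjusted p = 1.23e-10) and 1.14 ± 0.036 for POLR1D (adjusted p = 1.43e-17), a rise of over 2-fold. POLR1C rose with oxamate against hypoxia (1.47 ± 0.067) and again with NALA against oxamate (0.78 ± 0.056). POLR1D changed little with oxamate (0.10 ± 0.034, adjusted p = 0.0125), a call that was lost without replicate 1 of hypoxia (0.09) and that turned to -0.22 with library totals alone, and it rose with NALA (0.35 ± 0.034). Counts of POLR1C over POLR1D within a library were 0.201 and 0.211 with oxamate and NALA, 0.156 and 0.150 with oxamate, 0.0587 and 0.0597 in hypoxia and 0.228 and 0.255 in normoxia. POLR1C shares 6.3% of its exon bases with XPO5 on the opposite strand, a gene at 270.2% of its level that moved by -1.22 in hypoxia against normoxia, 1.80 with oxamate against hypoxia and -0.44 with NALA against oxamate. It also shares 2.3% with YIPF3, at 151.3% of its level (0.53, 0.20 and 0.36 in the same comparisons), and the sources used here do not say whether counting used strand, so the values of POLR1C are uncertain to that extent.

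The 2 largest subunits of polymerase III, POLR3A and POLR3B, form its active centre. POLR3A (ENSG00000148606) had 40.9 and 44.5 CPM with oxamate and NALA, 31.5 and 34.7 CPM with oxamate, 22.2 and 20.2 CPM in hypoxia and 44.8 and 42.1 CPM in normoxia. POLR3B (ENSG00000013503) had 8.79 and 8.97 CPM with oxamate and NALA, 14.9 and 15.4 CPM with oxamate, 7.23 and 6.30 CPM in hypoxia and 33.7 and 32.8 CPM in normoxia. POLR3A with NALA overlapped with its normoxia range, whereas POLR3B stayed far below normoxia in each hypoxic group. Both fell in hypoxia against normoxia, with log2 fold changes of -1.03 ± 0.069 for POLR3A and -2.30 ± 0.086 for POLR3B. Both rose with oxamate against hypoxia, by 0.64 ± 0.072 for POLR3A and 1.16 ± 0.095 for POLR3B. With NALA against oxamate POLR3A was higher (0.37 ± 0.068) and POLR3B lower (-0.77 ± 0.096), so this pair, like the polymerase I pair, was split by NALA. Counts of POLR3A over POLR3B within a library were 4.65 and 4.96 with oxamate and NALA, 2.12 and 2.25 with oxamate, 3.08 and 3.21 in hypoxia and 1.33 and 1.28 in normoxia.

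POLR3C, POLR3F and either POLR3G or POLR3GL form a trimer that opens DNA at the start of transcription. POLR3G is the form abundant in stem and many tumor cells, and POLR3GL is its paralog found in most tissues. POLR3G (ENSG00000113356) had 28.4 and 25.0 CPM with oxamate and NALA, 33.3 and 31.9 CPM with oxamate, 10.1 and 11 CPM in hypoxia and 41.1 and 42.2 CPM in normoxia. POLR3GL (ENSG00000121851) had 10.3 and 9.13 CPM with oxamate and NALA, 11.9 and 13.2 CPM with oxamate, 18.1 and 17.5 CPM in hypoxia and 9.86 and 8.35 CPM in normoxia. POLR3G was lowest in hypoxia, the group in which POLR3GL was highest. The log2 fold change in hypoxia against normoxia was -1.98 ± 0.076 for POLR3G (adjusted p = 4.12e-16) and 0.97 ± 0.10 for POLR3GL (adjusted p = 1.12e-08). Oxamate against hypoxia gave 1.63 ± 0.079 for POLR3G and -0.50 ± 0.097 for POLR3GL. POLR3G shares 6.5% of its exon bases with MBLAC2 on the opposite strand, at 31.5% of its level, and MBLAC2 moved by -0.17 and -1.22 in these comparisons.

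Both paralogs were lower with NALA than with oxamate, with log2 fold changes of -0.30 ± 0.072 for POLR3G and -0.38 ± 0.11 for POLR3GL, and the call of POLR3GL was lost without replicate 2 of oxamate with NALA (-0.27). Counts of POLR3G over POLR3GL within a library were 2.75 and 2.74 with oxamate and NALA, 2.80 and 2.41 with oxamate, 0.556 and 0.631 in hypoxia and 4.17 and 5.05 in normoxia. The 95% counting intervals ran from 0.481 to 0.728 over the hypoxia libraries and from 3.64 to 5.79 over the normoxia libraries. Per kilobase of exons of coding transcripts, POLR3G averaged 7.52, 9.18, 2.96 and 11.7 CPM in oxamate with NALA, oxamate, hypoxia and normoxia, and POLR3GL 8.34, 10.8, 15.3 and 7.81 CPM in the same groups. On that scale POLR3G was the more abundant paralog in normoxia alone, and the gap in favor of POLR3GL was widest in hypoxia. The order in the 2 groups with oxamate depends on the length used. Over the exons of all transcripts (4019 bases for POLR3G and 1799 for POLR3GL, against 3552 and 1165) POLR3G would be the higher there too. In hypoxia POLR3GL is the higher on either length.

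POLR3C (ENSG00000186141) had 60.8 and 57.3 CPM with oxamate and NALA, 90.2 and 88.5 CPM with oxamate, 26.9 and 27.0 CPM in hypoxia and 51.8 and 53.0 CPM in normoxia. POLR3F (ENSG00000132664) had 14.0 and 13.6 CPM with oxamate and NALA, 13.4 and 13.4 CPM with oxamate, 11.3 and 13.6 CPM in hypoxia and 24.2 and 25.4 CPM in normoxia. Both trimer genes were lower in hypoxia than in normoxia, and only POLR3C was called with oxamate. The log2 fold change was -0.96 ± 0.052 for POLR3C and -1.0 ± 0.086 for POLR3F in hypoxia against normoxia, both just short of a 2-fold decrease. Oxamate against hypoxia gave 1.73 ± 0.050 for POLR3C and 0.10 ± 0.094 for POLR3F (adjusted p = 0.326), and POLR3F passed as lower with library totals alone (-0.22).

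POLR3D and POLR3E make a dimer that takes part in initiation and termination, and POLR3K carries the RNA cleavage activity used at termination. POLR3K (ENSG00000161980) had 24.0 and 26.0 CPM with oxamate and NALA, 37.6 and 36.5 CPM with oxamate, 8.42 and 7.99 CPM in hypoxia and 30.1 and 31.8 CPM in normoxia. Its log2 fold change was -1.92 ± 0.079 in hypoxia against normoxia and 2.17 ± 0.078 with oxamate against hypoxia, the largest rise among the members in that comparison. POLR3K shares 8.1% of its exon bases with SNRNP25 on the opposite strand, at 173.0% of its level, and SNRNP25 moved by -0.65 and 1.33 in the same comparisons. POLR3E (ENSG00000058600) fell in hypoxia against normoxia (-1.32 ± 0.060) and rose by 1.29 ± 0.061 with oxamate against hypoxia and by 0.33 ± 0.054 with NALA against oxamate. POLR3D (ENSG00000168495), its partner, had 119 and 124 CPM with oxamate and NALA, 74.6 and 77.6 CPM with oxamate, 50.7 and 46.8 CPM in hypoxia and 50.4 and 49.2 CPM in normoxia. POLR3D thus overlapped between hypoxia and normoxia, and it rose with oxamate against hypoxia (0.64 ± 0.049) and with NALA against oxamate (0.68 ± 0.046).

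The subunits common to polymerases I, II and III are POLR2E, POLR2F, POLR2H, POLR2K and POLR2L. Of these, 4 were lower (36.8% of all tested genes) and POLR2H was higher (0.38 ± 0.036) in hypoxia against normoxia. With oxamate against hypoxia all 5 were higher (35.7%). With NALA against oxamate 4 were lower (31.7%) and POLR2H was again higher (0.35 ± 0.035). POLR2K (ENSG00000147669) had 67.4 and 62.4 CPM with oxamate and NALA, 75.0 and 75.5 CPM with oxamate, 23.8 and 25.3 CPM in hypoxia and 64.5 and 62.6 CPM in normoxia. Its decrease in hypoxia (-1.37 ± 0.055) was the only one of at least 2-fold in this group, where the log2 fold changes of POLR2E, POLR2F and POLR2L lay between -0.53 and -0.39. POLR2E (ENSG00000099817), at 191 and 199 CPM with oxamate and NALA, 261 and 256 CPM with oxamate, 103 and 106 CPM in hypoxia and 141 and 141 CPM in normoxia, rose with oxamate against hypoxia by 1.31 ± 0.036. POLR2F (1.40 ± 0.050), POLR2K (1.62 ± 0.055) and POLR2L (1.32 ± 0.048) rose by at least 2-fold as well, and POLR2H by 0.36 ± 0.035, a call that was lost with library totals alone (0.04). Against normoxia all 5 were higher with oxamate (31.9% of all tested genes), by between 0.24 for POLR2K and 0.93 for POLR2L. With library totals alone POLR2K turned to -0.14. POLR2L shares 22.5% of its exon bases with CD151 on the opposite strand, at 289.3% of its level, so its values are uncertain without strand, and CD151 moved by -0.17 in hypoxia against normoxia, 0.92 with oxamate against hypoxia and -0.33 with NALA against oxamate.

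**Figure D4:**
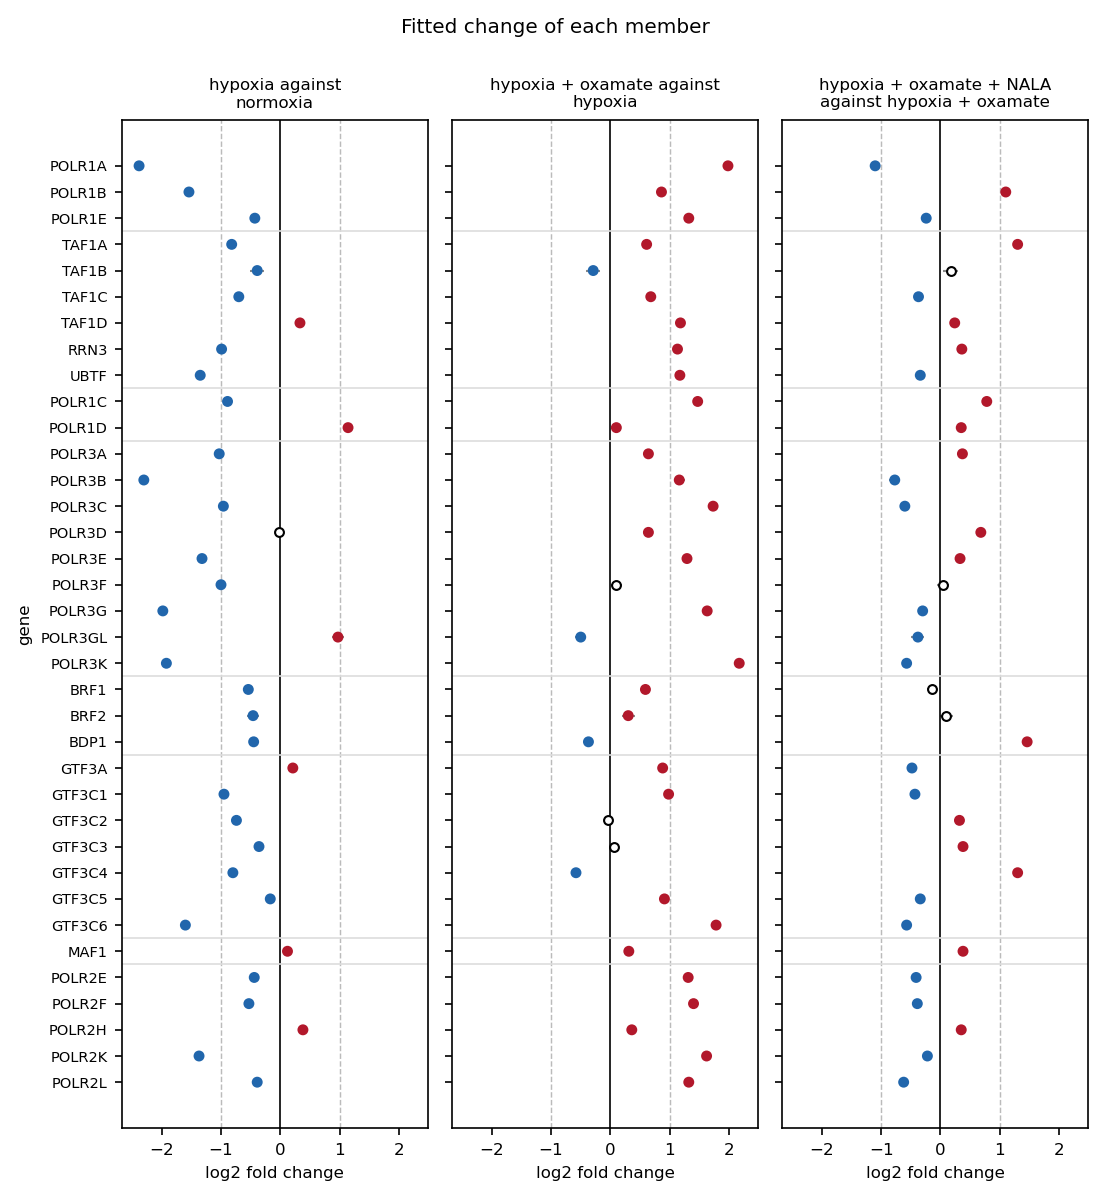
Fitted log2 fold change of each member with its standard error (horizontal bars, often hidden by the point) in hypoxia against normoxia, hypoxia with oxamate against hypoxia, and hypoxia with oxamate and NALA against hypoxia with oxamate. Red points were called higher, blue points lower and open points were not called, dashed lines mark 2-fold, and the members lie mostly left of 0 in the first panel, right of 0 in the second and on both sides in the third.

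The initiation factors of polymerase I are UBTF, which binds and opens ribosomal DNA, RRN3, which joins the polymerase to the promoter, and TAF1A, TAF1B, TAF1C and TAF1D, the SL1 subunits that bind with the TATA-binding protein. UBTF (ENSG00000108312) had 110 and 118 CPM with oxamate and NALA, 141 and 148 CPM with oxamate, 65.3 and 63.0 CPM in hypoxia and 166 and 161 CPM in normoxia. RRN3 (ENSG00000085721) had 149 and 142 CPM with oxamate and NALA, 115 and 111 CPM with oxamate, 50.8 and 52.4 CPM in hypoxia and 105 and 100 CPM in normoxia. Both had their lowest level in hypoxia, and with NALA UBTF was lower and RRN3 higher than with oxamate. The log2 fold change was -1.35 ± 0.043 for UBTF and -0.99 ± 0.045 for RRN3 in hypoxia against normoxia, and 1.17 ± 0.044 for UBTF and 1.13 ± 0.045 for RRN3 with oxamate against hypoxia. With NALA against oxamate it was -0.34 ± 0.042 for UBTF and 0.36 ± 0.041 for RRN3. With oxamate and TMM scaling both stood close to normoxia, at -0.18 ± 0.040 for UBTF and 0.14 ± 0.042 for RRN3. UBTF was not called without replicate 1 of oxamate (-0.05) or in DESeq2 (-0.1). It stayed called lower with library totals alone, which moves the median of all genes by -0.39 here. RRN3 was not called without replicate 2 of normoxia (0.10) and was -0.25 with library totals alone. RRN3 has near copies, of which RRN3P3 was counted at 3.02% of its level, so reads may have been shared between them.

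The SL1 genes did not move as one. TAF1D (ENSG00000166012) had 460 and 443 CPM with oxamate and NALA, 388 and 379 CPM with oxamate, 168 and 171 CPM in hypoxia and 134 and 135 CPM in normoxia. It was the only one of the 6 initiation factor genes higher in hypoxia than in normoxia (0.33 ± 0.034), and it rose further with oxamate (1.18 ± 0.033). With NALA against oxamate it rose by 0.24 ± 0.031, a call that was lost with upper quartile scaling (0.05). Several small nucleolar RNAs and a microRNA lie within exons of TAF1D, and each was at 0.0% of its level in these libraries. TAF1A (ENSG00000143498) had 77.2 and 68.4 CPM with oxamate and NALA, 30.3 and 28.6 CPM with oxamate, 17.7 and 20.8 CPM in hypoxia and 34.9 and 33.2 CPM in normoxia. Its level with NALA was above that of every other library, with a log2 fold change of 1.3 ± 0.071 against oxamate, and it was lower in hypoxia than in normoxia (-0.82 ± 0.079).

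TAF1C (ENSG00000103168) had log2 fold changes of -0.70 ± 0.062 in hypoxia against normoxia, 0.68 ± 0.063 with oxamate against hypoxia and -0.37 ± 0.063 with NALA against oxamate. TAF1B (ENSG00000115750), the least abundant of these genes at 6.11 to 11.7 CPM, was lower in hypoxia than in normoxia (-0.39 ± 0.12, adjusted p = 0.00493) and lower again with oxamate than in hypoxia (-0.29 ± 0.12, adjusted p = 0.0381). The first call was lost without replicate 1 of normoxia (-0.29) and in DESeq2 (-0.39). The second was lost without replicate 1 of hypoxia (-0.30), replicate 2 of hypoxia (-0.28) or replicate 2 of oxamate (-0.05), and also with RLE scaling (-0.21), the stricter filter (-0.25), a fit of these groups alone (-0.19) and DESeq2 (-0.21).

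TFIIIB brings polymerase III to its start sites and consists of BDP1, the TATA-binding protein and either BRF1, used at 5S and transfer RNA genes, or BRF2, used at U6-type promoters. BDP1 (ENSG00000145734) had 70.5 and 63.7 CPM with oxamate and NALA, 24.9 and 23.9 CPM with oxamate, 30.3 and 32.7 CPM in hypoxia and 44.6 and 41.7 CPM in normoxia. No libraries of different groups overlapped, and the lowest values lay with oxamate and the highest with oxamate and NALA. The log2 fold change of BDP1 was -0.45 ± 0.063 in hypoxia against normoxia, -0.37 ± 0.069 with oxamate against hypoxia and 1.46 ± 0.065 with NALA against oxamate (adjusted p = 9.02e-15), the largest rise among the members with NALA. BRF1 (ENSG00000185024) had 21.5 and 22.3 CPM with oxamate and NALA, 25.6 and 22.9 CPM with oxamate, 16.0 and 16.1 CPM in hypoxia and 24.6 and 22 CPM in normoxia. BRF1 was below the other groups in hypoxia (-0.54 ± 0.080 against normoxia), higher with oxamate than in hypoxia (0.59 ± 0.081) and not called with NALA against oxamate (-0.15 ± 0.081, adjusted p = 0.121), where it passed as lower without replicate 2 of oxamate (-0.32), with RLE (-0.20) or upper quartile scaling (-0.34) and with the stricter count filter (-0.26). BRF2 (ENSG00000104221), at 7.57 to 11.1 CPM over all libraries, was lower in hypoxia than in normoxia (-0.46 ± 0.10). Its rise with oxamate (0.30 ± 0.11, adjusted p = 0.0145) was lost without replicate 2 of hypoxia (0.26) and was -0.02 with library totals alone. The exons of BRF2 overlap with those of ADGRA2 on the opposite strand over 59.0% of their bases, and those of BRF1 with BTBD6 (4.8%) and PACS2 (3.2%), so both genes are uncertain without strand. ADGRA2 was at 23.1% of the level of BRF2, and BTBD6 at 153.5% and PACS2 at 176.9% of that of BRF1. In hypoxia against normoxia, oxamate against hypoxia and NALA against oxamate, ADGRA2 moved by 0.11, 0.23 and -0.58. In the same order BTBD6 moved by -0.82, 1.07 and -0.41, and PACS2 by -0.23, 0.47 and -0.27.

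TFIIIA, encoded by GTF3A, binds 5S genes, and TFIIIC binds the internal promoters of transfer RNA genes through 6 subunits. All 6 TFIIIC genes fell (36.8% of all tested genes) and GTF3A rose (0.21 ± 0.040) in hypoxia against normoxia, and GTF3C5, the least changed (-0.17 ± 0.042), was not called with upper quartile scaling (-0.06). GTF3C6 (ENSG00000155115) had 52.8 and 49.3 CPM with oxamate and NALA, 75.1 and 76.2 CPM with oxamate, 22.9 and 21.2 CPM in hypoxia and 68.1 and 66.1 CPM in normoxia. GTF3C4 (ENSG00000125484) had 99.8 and 91.9 CPM with oxamate and NALA, 39.6 and 37.9 CPM with oxamate, 58.2 and 57.9 CPM in hypoxia and 100 and 102 CPM in normoxia. These subunits of the same complex stood apart with oxamate, with GTF3C6 at its highest and GTF3C4 at its lowest. Against hypoxia the log2 fold change with oxamate was 1.78 ± 0.056 for GTF3C6 (adjusted p = 5.86e-18) and -0.58 ± 0.052 for GTF3C4 (adjusted p = 8.16e-10). With NALA against oxamate it was -0.57 ± 0.051 for GTF3C6 and 1.3 ± 0.051 for GTF3C4. Both were lower in hypoxia than in normoxia, at -1.60 ± 0.056 for GTF3C6 and -0.80 ± 0.046 for GTF3C4. Oxamate against normoxia gave -1.38 ± 0.049 for GTF3C4, the largest decrease among the members in that comparison. GTF3C4 shares 4.1% of its exon bases with DDX31 on the opposite strand, at 45.3% of its level, and DDX31 moved by -1.33, 1.68 and 0.00 in hypoxia against normoxia, oxamate against hypoxia and NALA against oxamate.

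GTF3C1, which encodes the largest subunit, rose with oxamate against hypoxia (0.98 ± 0.045) and fell with NALA against oxamate (-0.43 ± 0.045), and so did GTF3C5 (0.91 ± 0.041 with oxamate and -0.34 ± 0.041 with NALA). GTF3C2 was not called with oxamate (-0.04 ± 0.047) and rose with NALA (0.32 ± 0.048), and so did GTF3C3 (0.06 ± 0.052 with oxamate and 0.38 ± 0.052 with NALA). GTF3C2 was called lower with upper quartile scaling (-0.11) or library totals alone (-0.36), and GTF3C3 was called higher without replicate 1 (0.16) or replicate 2 (0.17) of oxamate and lower with library totals alone (-0.26). GTF3A (ENSG00000122034) had 126 and 131 CPM with oxamate and NALA, 177 and 181 CPM with oxamate, 96.3 and 98.9 CPM in hypoxia and 82.8 and 86.0 CPM in normoxia. It was highest with oxamate and lowest in normoxia, with a log2 fold change of 0.88 ± 0.038 with oxamate against hypoxia and -0.48 ± 0.038 with NALA against oxamate. GTF3A, GTF3C2, GTF3C3, MAF1, POLR2E and TAF1D also share up to 6.3% of their exon bases with an opposite-strand gene at 11.4% to 37.1% of their level.

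**Figure D5:**
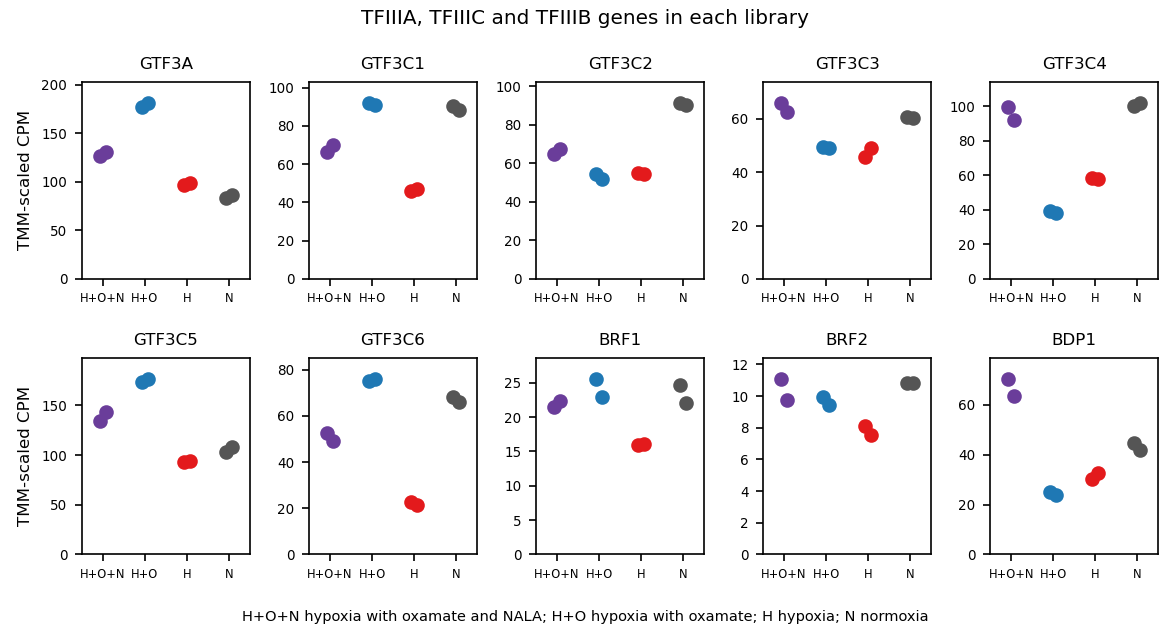
TMM-scaled CPM of the TFIIIA, TFIIIC and TFIIIB genes, 1 point per library and 2 libraries per group, each panel on its own scale from 0. GTF3C4 and BDP1 lie lowest with oxamate (37.9 to 39.6 and 23.9 to 24.9 CPM), while GTF3C6 lies highest there (75.1 and 76.2 CPM).

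MAF1 (ENSG00000179632), the repressor of polymerase III, had 102 and 104 CPM with oxamate and NALA, 77.8 and 80.3 CPM with oxamate, 65.6 and 62.2 CPM in hypoxia and 57.1 and 60.6 CPM in normoxia. Its groups did not overlap. The rise in hypoxia against normoxia was small (0.12 ± 0.047, adjusted p = 0.0316) and was lost without replicate 1 of normoxia (0.07), without replicate 1 of hypoxia (0.07), without either oxamate library (0.11 each), with no filter on low counts (0.11), with library totals alone (0.05) and in DESeq2 (0.12). With oxamate against hypoxia it rose by 0.31 ± 0.047, which was -0.01 with library totals alone, and with NALA against oxamate by 0.38 ± 0.046.

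Other genes of the same pathways were counted from 8 lists of 81 symbols, of which 75 were matched in the table. For comparison, 36.7% of all tested genes rose and 36.8% fell in hypoxia against normoxia, 35.7% rose and 44.8% fell with oxamate against hypoxia, and 33.2% rose and 31.7% fell with NALA against oxamate. Of the 8 other polymerase I genes, 0 rose and 7 fell in hypoxia against normoxia, and 6 rose and 1 fell with oxamate against hypoxia. TCOF1, which encodes the nucleolar factor treacle, had 509 and 512 CPM with oxamate and NALA, 498 and 505 CPM with oxamate, 138 and 135 CPM in hypoxia and 385 and 374 CPM in normoxia, and it was lower in hypoxia (-1.48 ± 0.032) and higher with oxamate (1.88 ± 0.032). POLR1G, the dimer partner of POLR1E, had log2 fold changes of -2.88 ± 0.086 in hypoxia against normoxia and 0.57 ± 0.11 with oxamate against hypoxia, and it stayed below normoxia with oxamate (-2.32 ± 0.083) where POLR1E was above it. Of the 10 other polymerase III genes, 4 rose and 5 fell in hypoxia, near the shares of all tested genes (36.7% and 36.8%), and 6 rose and 3 fell with oxamate (35.7% and 44.8%). SNAPC4, of the complex that binds U6-type promoters, moved by -1.48 ± 0.062 in hypoxia against normoxia and 1.16 ± 0.065 with oxamate against hypoxia.

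The 7 subunits found in polymerase II alone gave 0 higher and 5 lower in hypoxia against normoxia (36.7% and 36.8% of all tested genes), 6 higher and 1 lower with oxamate against hypoxia (35.7% and 44.8%), and 3 higher and 4 lower with NALA against oxamate (33.2% and 31.7%), and with upper quartile scaling 2 were higher and 5 lower in hypoxia. POLR2B, the second largest subunit of polymerase II, was the one that fell with oxamate (-0.66 ± 0.042), and it rose with NALA (1.25 ± 0.042). The 6 transcription-coupled UTP genes, which link ribosomal RNA synthesis to its processing, all fell in hypoxia against normoxia, among them NOL11 (-1.67 ± 0.044) and HEATR1 (-1.12 ± 0.035). All 6 rose with oxamate against hypoxia (5 with library totals alone), NOL11 by 0.74 ± 0.047 and HEATR1 by 1.06 ± 0.035. Of 11 polymerase assembly factors, 3 rose and 6 fell in hypoxia (36.7% and 36.8% of all tested genes), or 3 and 4 with upper quartile scaling, and 7 rose and 3 fell with oxamate (35.7% and 44.8%). They include RUVBL1, an ATPase of the R2TP chaperone complex (-1.30 ± 0.037 in hypoxia and 2.20 ± 0.037 with oxamate), and PIH1D1 of the same complex (0.77 ± 0.038 in hypoxia and -0.30 ± 0.038 with oxamate).

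Of 9 chromatin regulators of ribosomal DNA, 3 were higher and 5 lower in hypoxia (36.7% and 36.8% of all tested genes), 2 were higher and 5 lower with oxamate (35.7% and 44.8%), and 8 were higher and 1 lower with NALA against oxamate (33.2% and 31.7%). BAZ2A, a subunit of the nucleolar remodeling complex that silences ribosomal DNA, had 204 and 208 CPM with oxamate and NALA, 72.6 and 77.5 CPM with oxamate, 163 and 163 CPM in hypoxia and 101 and 98.7 CPM in normoxia, highest with NALA and lowest with oxamate. RRP8, a nucleolar protein of the energy-dependent silencing complex, rose by 1.77 ± 0.059 with NALA against oxamate and was lower in hypoxia than in normoxia (-0.94 ± 0.066). Of 7 kinases and growth regulators, 3 rose and 2 fell in hypoxia (36.7% and 36.8% of all tested genes), or 2 and 3 with library totals alone and 5 and 2 with upper quartile scaling, and 6 rose and 1 fell with oxamate (35.7% and 44.8%). MTOR, a growth-signal kinase that promotes transcription by both polymerases, had log2 fold changes of -1.38 ± 0.051 in hypoxia against normoxia and 1.92 ± 0.050 with oxamate against hypoxia.

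Transcripts of polymerase III itself were hardly captured. Of 23 listed symbols of polymerase I and III transcripts 17 were matched, in 18 table entries of which 4 were tested. The ribosomal RNA precursors made by polymerase I were not among the matched symbols. RN7SK, an inhibitory RNA of transcription elongation, had 3.20 and 1.79 CPM with oxamate and NALA, 3.45 and 2.43 CPM with oxamate, 0.848 and 0.704 CPM in hypoxia and 0.521 and 0.253 CPM in normoxia. RN7SL1, the RNA of the signal recognition particle, had 1.78 and 1.71 CPM with oxamate and NALA, 1.82 and 1.94 CPM with oxamate, 0.679 and 0.598 CPM in hypoxia and 1.08 and 1.99 CPM in normoxia. With oxamate against hypoxia all 4 rose, RN7SK by 1.91 ± 0.35 and RN7SL1 by 1.55 ± 0.34, and with NALA against oxamate 0 of 4 were called. These are poly(A)-selected counts of RNAs that mostly lack a tail, so they do not measure how much of these RNAs the cells held.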

How the data were processed

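The authors deposited 1 table of whole-number counts per gene, with 1 column for each of the 8 libraries and no normalization. Per the submitters' processing notes FastQC 0.11.9, STAR 2.7.8a, RSEM 1.3.3 and the build hg38 (GRCh38) were used, with no roles given, so the counts may be rounded RSEM estimates. The sources used here do not give the strand setting or the annotation release.

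The low-count filter was filterByExpr of edgeR 4.0.16 (limma 3.58.1, R 4.3.3) at a minimum of 10 counts, scaling was by TMM, and 1 robust quasi-likelihood model with a mean per group was fitted to all 8 libraries (4 residual degrees of freedom). Comparisons used two-sided F tests with Benjamini-Hochberg adjustment over 15554 genes. The standard error was derived from the F statistic, and the fitting was tested on simulated data, where more calls were false than the threshold aims at. Ratios of counts carry Clopper-Pearson 95% intervals, which cover counting error only. A floor of 3 counts equals 0.102 to 0.137 CPM of the library totals, which limits the precision of low genes.

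The 36 members and the gene lists were chosen with earlier results of these data known. All members are named, and of each list the 2 genes with the smallest p in hypoxia against normoxia, of which 2 in all are not reported here. POLR1A, POLR1B, GTF3C6 and GTF3C4 were picked for printed promoters after their values were seen. Overlaps, copies and exon lengths come from GENCODE release 29, in which 21 members share exon bases with another gene, 13 of them with a partner at 10% or more of their level.

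Alternatives were RLE, upper quartile and library-total scaling, no filter, at least 50 counts in 2 libraries, DESeq2 1.42.0, a replicate block, each pair of groups fitted by itself, and the omission of each library.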

Additional observations from a re-analysis of the deposited data

How the results depend on the processing

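Each comparison was repeated under 16 other settings. Over these, the direction and call of 33 of the 36 members held in all settings in hypoxia against normoxia, 28 with oxamate against hypoxia, 33 with NALA against oxamate and 23 with oxamate against normoxia. Scaling by library totals alone moved calls in both comparisons of oxamate alone. Over all tested genes 8508 instead of 6965 were lower with oxamate against hypoxia under that scaling, and 8762 instead of 6238 with oxamate against normoxia. With oxamate against hypoxia, 8 members instead of 4 were then lower and 9 instead of 16 were higher by at least 2-fold. With oxamate against normoxia, 21 instead of 13 were lower, 1 instead of 3 was higher by at least 2-fold and 7 instead of 2 were lower by at least 2-fold. Signs turned under that scaling with oxamate against hypoxia for POLR1D (-0.22), POLR3F (-0.22), BRF2 (-0.02), GTF3C3 (-0.26) and MAF1 (-0.01), and with oxamate against normoxia for POLR3K (-0.13), POLR2K (-0.14), RRN3 (-0.25), BRF1 (-0.33), GTF3C1 (-0.35) and GTF3C6 (-0.21). In hypoxia against normoxia the count of members at least 2-fold higher was 2 instead of 1 with upper quartile scaling and with the stricter filter. Leaving out each library in turn gave 1 to 2 for that count, 2 being without normoxia replicate 1, and 3 to 5 members at least 2-fold higher with oxamate against normoxia, 5 being without oxamate replicate 2. The cause of these shifts was not tested beyond the scaling itself. The replicate numbers do not pair the libraries, since the deviations of same-numbered libraries correlated between -0.050 and 0.012, and with a replicate block the calls were the same, 29 higher and 4 lower with oxamate against hypoxia. With 2 libraries per group the spread is pooled over groups, and a group left with 1 library is assumed to vary like the others.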

Other observations

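Per kilobase of exons of coding transcripts, the members covered a wide range of levels. TAF1D averaged 217, 184, 81.2 and 64.8 CPM per kilobase in oxamate with NALA, oxamate, hypoxia and normoxia, and was the most abundant member by this measure in both groups with oxamate. In hypoxia POLR2H (84.7 CPM per kilobase) was the most abundant, and in normoxia GTF3C6 (70.5). The lowest level in hypoxia was that of POLR1A (1.36 CPM per kilobase), followed by POLR3B (1.53), against 7.11 for POLR1A and 7.54 for POLR3B in normoxia. Among the TFIIIB genes BRF1, BRF2 and BDP1 lay close together in normoxia, at 3.95, 3.95 and 3.89 CPM per kilobase. With oxamate and NALA BDP1 stood above both, at 6.06 against 3.71 for BRF1 and 3.81 for BRF2. These orders depend on the length used. Over the exons of all transcripts TAF1D has 8420 bases (2082 in coding transcripts) and BRF1 has 13167 (5899). On that length TAF1D would not be the most abundant member in either group with oxamate. BRF1 would then be the lowest member in hypoxia, and would lie well below BRF2 and BDP1 in normoxia.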
